A study of Mus musculus with 53 samples.

Results

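The 10 genes examined here, Ocstamp, Dcstamp, Cdh1, Atp6v0d2, Acp5, Ctsk, Cd9, Cd81, Trem2 and Tyrobp, are known for parts in the fusion of macrophages into multinucleated cells or as markers of the osteoclasts and giant cells that result. They were chosen by name, with earlier results of these data known, and each matched 1 of the 23847 loci in every expression table. Their levels were measured by RNA-seq of polyadenylated RNA in bone marrow-derived macrophages (BMDMs) grown for 6 days in L929 supernatant as a source of M-CSF, from mice aged 8 to 12 weeks. The groups were WT and Stat6-/- BMDMs that received 20 ng/ml of IL-4 for 1, 3, 6 or 24 h, untreated controls of the same times, and a control at 0 h. The 53 samples fell into 18 groups, with 4 samples per WT group (3 for WT with 24 h of IL-4, whose replicate 1 is not analysed here) and 2 per Stat6-/- group. The knockout was carried by all cells of the animal. The comparisons asked which fusion and giant cell genes IL-4 moves, when, and whether the change is seen without STAT6.

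IL-4 is the classical cytokine for giant cell formation in macrophage cultures, whereas osteoclasts form under RANKL, and both routes pass through a shared set of surface molecules. The seven-pass proteins DC-STAMP and OC-STAMP are required for fusion of osteoclasts, E-cadherin brings cells into contact, the tetraspanins CD9 and CD81 organise the membrane around the contact, and the receptor TREM2 signals through the adaptor DAP12, which Tyrobp encodes. The fused cell is recognised by its acid-secreting and matrix-degrading proteins, among them the d2 subunit of the V-ATPase (Atp6v0d2), tartrate-resistant acid phosphatase (Acp5) and cathepsin K (Ctsk).

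Each of the 10 is a protein-coding gene, and gene coordinates below are mm10, counted from 1. The values are FPKM, fragments scaled to the length of the transcript and the depth of the library. Differences were tested in limma on log2(FPKM + 1) across the 11146 loci that reached 1 FPKM in any sample, which included all 10 genes. Ocstamp and Cdh1 reached 1 FPKM only in WT samples with IL-4, and so entered the test only through the samples where they were high. Their highest values in all other samples were 0.904 and 0.506 FPKM. A gene passed the test at an adjusted p (Benjamini-Hochberg) under 0.05, and it was called where its log2 fold change was also at least 1 in size. The labels were borne out by Stat6, which lay between 14.3 and 24.0 FPKM in the 18 Stat6-/- samples and between 58.7 and 90.6 in the 35 WT samples. Macrophage markers were abundant in every sample (summed level of 6 genes, 2604 to 4469 FPKM). Lymphocyte, dendritic cell, epithelial and stromal markers were low, at summed levels of at most 0.867, 8.78, 0.969 and 4.55 FPKM. Granulocyte and progenitor markers, however, summed to between 226 and 1088 FPKM, and S100a8 and S100a9 made up most of this. Relative depth ranged from 0.707 to 1.55 of the median sample. In bulk RNA, a change in the number of cells that express a gene cannot be told apart from a change in RNA per cell.

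**Figure D1:**
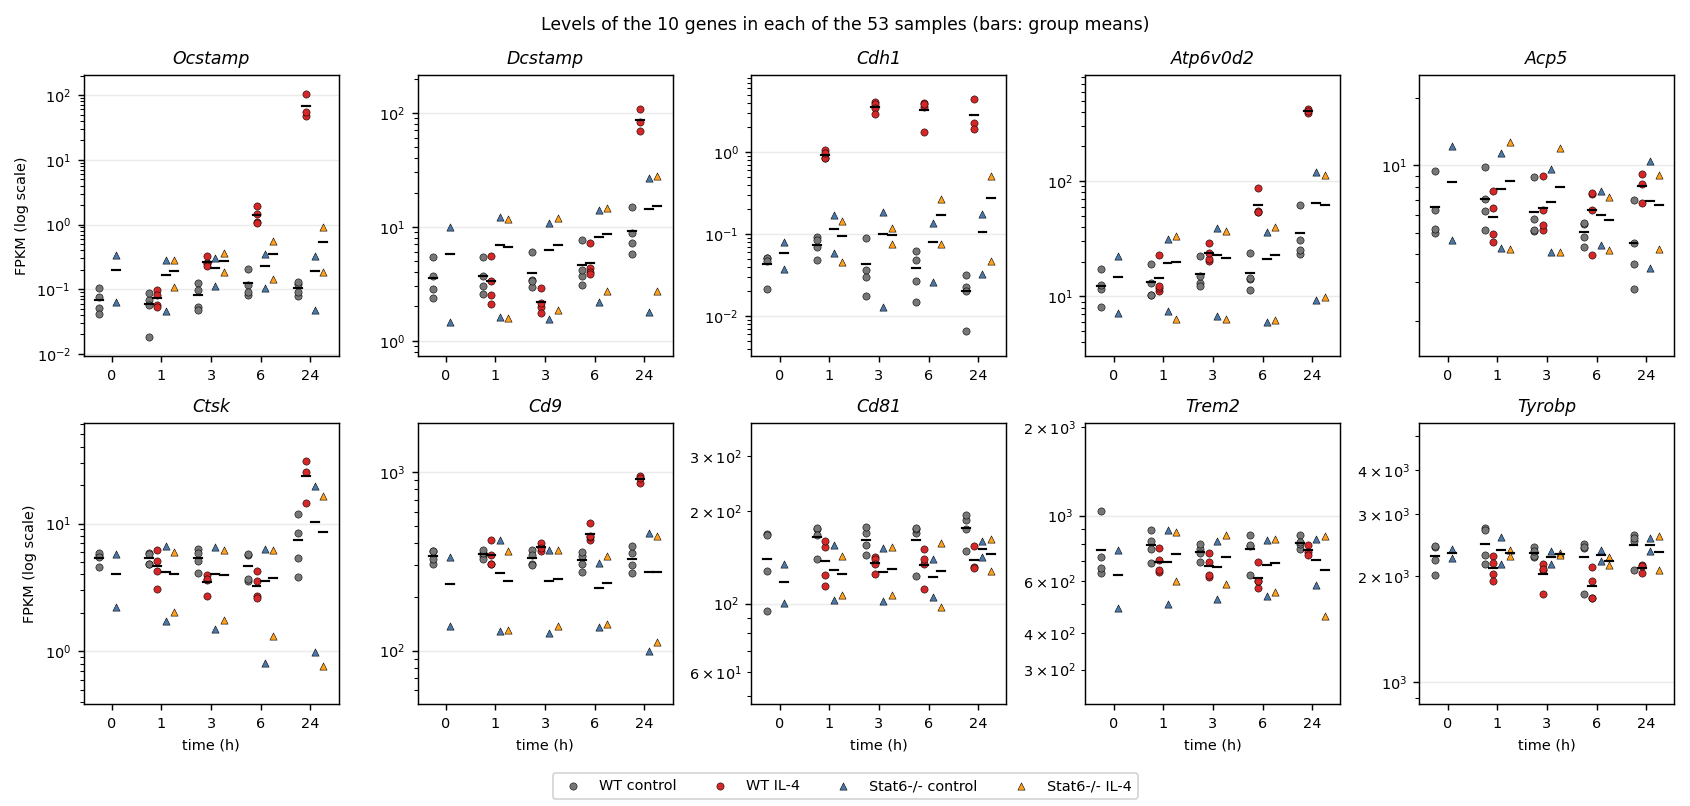
FPKM of each of the 10 genes (log axis) against time in h, with circles for WT samples, triangles for Stat6-/- samples and short bars for group means. The 3 WT samples with 24 h of IL-4 stand above all other samples for Ocstamp, Dcstamp, Atp6v0d2 and Cd9, Cdh1 is already raised at 1 h, and Cd81, Trem2 and Tyrobp keep a narrow range.

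RefSeq promoters (build GRCm38.p6, 250 bases before to 50 after a start) were at hand for 5 of the 10 genes, namely Ctsk, Cd9, Cd81, Acp5 and Trem2, with 7 start sites between them. They were searched for TTC and GAA with 4 bases between them, the spacing that STAT6 is known to prefer, and for the same letters with 3 bases between them, TTCNNNGAA, the spacing of other STAT proteins. Both motifs read the same on either strand. The 4-base spacing was found in 1 of the 7 promoters, that of the Acp5 start nearest to the end of the gene, at position -110 from the start, and in 6.95% of all 32851 promoters in the table. TTCNNNGAA was found in none of the 7 and in 8.3% of all. The promoters of Cd9 and Ctsk are shown because these are the 2 IL-4-induced genes with an entry, and the Acp5 promoter because it holds the motif, which is in capitals. Cd9 lies at chr6:125494711-125495010, minus strand, Ctsk at chr3:95498960-95499259, plus strand, and the Acp5 start at chr9:22130549-22130848, minus strand.
Cd9: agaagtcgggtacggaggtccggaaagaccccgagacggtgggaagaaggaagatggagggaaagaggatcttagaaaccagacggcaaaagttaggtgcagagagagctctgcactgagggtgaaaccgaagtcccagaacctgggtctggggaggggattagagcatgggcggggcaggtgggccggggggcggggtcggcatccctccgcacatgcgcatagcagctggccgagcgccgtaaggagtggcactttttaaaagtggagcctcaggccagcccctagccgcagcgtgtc
Ctsk: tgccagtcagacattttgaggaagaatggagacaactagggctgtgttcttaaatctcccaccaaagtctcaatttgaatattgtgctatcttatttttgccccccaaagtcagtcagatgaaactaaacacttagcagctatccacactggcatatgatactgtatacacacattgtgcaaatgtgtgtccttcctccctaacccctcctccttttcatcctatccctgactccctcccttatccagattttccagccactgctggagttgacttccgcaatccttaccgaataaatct
Acp5: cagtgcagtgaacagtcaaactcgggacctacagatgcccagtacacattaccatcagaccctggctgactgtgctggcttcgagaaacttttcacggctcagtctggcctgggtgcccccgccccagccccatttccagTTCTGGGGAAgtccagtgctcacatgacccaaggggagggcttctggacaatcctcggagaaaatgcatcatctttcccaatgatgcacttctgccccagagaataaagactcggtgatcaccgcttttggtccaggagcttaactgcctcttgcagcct
These windows cover no enhancer, and a match or its absence is a description of the letters only. The 3 windows differ in base composition, with 61.3% G and C for Cd9, 43.7% for Ctsk and 54.7% for Acp5.

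Before IL-4, the 10 genes spanned a wide range of levels, compared here per length as FPKM in WT BMDMs at 0 h (mean ± SD, n = 4). Tyrobp, the ITAM adaptor, was at 2278 ± 196 and ranked 15 among the 23847 loci, followed by its partner Trem2 at 764 ± 183. The tetraspanins came next, Cd9 at 338 ± 27.8 and Cd81 at 139 ± 35.2. Each of these 4 was separated from its neighbours in this order, with no overlap between samples. Atp6v0d2 was at 12.4 ± 3.88, Acp5 at 6.48 ± 2.07, Ctsk at 5.37 ± 0.578 and Dcstamp at 3.58 ± 1.36, and in this stretch each gene overlapped the next. Ocstamp, at 0.0685 ± 0.0286, and Cdh1, at 0.0427 ± 0.0143, were near the lower limit of the tables and overlapped each other. Signalling components and tetraspanins were thus abundant before IL-4, and Ocstamp and Cdh1 nearly absent.

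After 24 h of IL-4 in WT BMDMs, 6 of the 10 genes were called higher and none lower, against 8.5% of all tested loci called in either direction and 3.91% called higher. The 6 were Ocstamp, Atp6v0d2, Dcstamp, Cdh1, Ctsk and Cd9. Of these, Ocstamp and Cdh1 had entered the test only through WT samples with IL-4. The median log2 fold change of the 10 genes was 1.54, against -0.07 over all tested loci. The counts at the earlier times were 3 at 6 h (5.54% of loci called, 3.18% higher), 1 at 3 h (3.88%, 2.61% higher) and 0 at 1 h (1.49%, with 9.39% passing the test). At 24 h the samples of the 6 genes did not overlap between groups, as was the case, with IL-4 higher, for 27.4% of all loci. The genes did not move together in time, as the following paragraphs describe.

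Ocstamp (chr2:165395450-165400394, minus strand), which encodes OC-STAMP, changed most. With 24 h of IL-4 the 3 WT samples were at 104, 47.5 and 55.1 FPKM, and the 4 controls at 0.0785, 0.120, 0.0914 and 0.130 FPKM. The groups were far apart, with a ratio of the means of 656 and a log2 fold change of 5.90 (SE 0.16, limma adjusted p = 3.11e-28), the third highest of all 11146 loci. The rise had begun earlier. At 6 h the IL-4 samples were at 1.09, 1.46, 1.07 and 1.90 FPKM against 0.116, 0.0814, 0.0918 and 0.205 in controls (log2 fold change 1.07, SE 0.14, limma adjusted p = 8.73e-08). At 3 h every IL-4 sample, from 0.232 to 0.330 FPKM, exceeded every control, from 0.0470 to 0.124, which held for 20.8% of loci, but the change on the log2(FPKM + 1) scale was 0.23 (limma adjusted p = 0.26). With 0.1 in place of 1 as the pseudocount it was 1.04 (limma adjusted p = 0.0304). The response at 24 h exceeded that at 6 h by 4.83 log2 units (SE 0.21, limma adjusted p = 7.12e-20, 6.06% of loci called), so that nearly all of the increase fell between these times. Ocstamp moved from rank 12252 in the controls to rank 968 of the 23847 loci.

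Dcstamp (chr15:39745932-39760934, plus strand), which encodes DC-STAMP and is the closest functional partner of Ocstamp in fusion, followed a different course. No gain was seen up to 6 h, when the IL-4 samples (4.33, 3.99, 3.86 and 7.24 FPKM) overlapped the controls (3.11, 3.71, 4.17 and 7.63 FPKM). At 3 h all 4 IL-4 samples, from 1.76 to 2.92 FPKM, lay below all 4 controls, from 2.99 to 6.03, which is also true of 18.1% of loci, and the difference of -0.60 did not pass the test (SE 0.64, limma adjusted p = 0.563). It passed with only the samples compared in the fit (limma adjusted p = 0.0241). At 24 h the IL-4 samples reached 108, 68.7 and 82.9 FPKM, and the controls 5.75, 7.18, 8.78 and 14.8 FPKM. The groups did not overlap, the means differed 9.49-fold, and the log2 fold change was 3.16 (SE 0.69, limma adjusted p = 0.000218). The response at 24 h exceeded that at 6 h by 3.09 log2 units (SE 0.95, limma adjusted p = 0.0123). Without WT replicate 4 in all 9 WT groups this last difference was 3.30, with an adjusted p of 0.0524 in limma. Dcstamp and Ocstamp thus reached similar levels at 24 h, 86.7 ± 20.1 and 68.8 ± 30.6 FPKM (SD, n = 3), although their controls were at 9.14 ± 3.99 and 0.105 ± 0.0242 FPKM (SD, n = 4).

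Cdh1 (chr8:106603368-106670246, plus strand), which encodes the adhesion molecule E-cadherin, was the earliest of the 10 genes to rise. After 1 h of IL-4 it was at 0.847, 0.852, 1.05 and 0.967 FPKM, against 0.0908, 0.0690, 0.0477 and 0.0844 in controls. The groups were far apart, with a 12.7-fold ratio of means, and the change passed the test (log2 fold change 0.84, SE 0.13, limma adjusted p = 7.47e-06) but stayed under the fold needed for a call. At 3 h the IL-4 samples reached 4.10, 3.82, 3.46 and 2.88 FPKM, with controls between 0.0175 and 0.0903 (log2 fold change 2.12, SE 0.13, limma adjusted p = 3.03e-16). The step from 1 to 3 h was itself significant (1.28, SE 0.19, limma adjusted p = 4.38e-06, 1.61% of loci called). The level then stayed between 1.77 and 3.91 FPKM at 6 h and between 1.90 and 4.39 at 24 h, and neither later step passed the test (limma adjusted p = 0.929 and 0.639). Cdh1 is the defining adhesion molecule of epithelia, and 8 other epithelial markers were near 0. Their summed level was 0 to 0.402 FPKM in the 4 WT samples with 3 h of IL-4 and 0.0400 to 0.151 in the controls, and Krt8, Krt19, Cldn3 and Cldn4 each had a median of 0 over the 53 samples. Since Cdh1 stayed below 5 FPKM throughout, its mean over all samples was under 1 FPKM, and a filter on the mean would have removed it.

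Atp6v0d2 (chr4:19876838-19922566, minus strand), a V-ATPase subunit that is also needed for fusion of osteoclasts, rose in steps. At 6 h of IL-4 it was at 54.4, 55.0, 53.8 and 86.4 FPKM, and in controls at 14.0, 11.5, 14.4 and 23.8 FPKM. The groups did not overlap, and the log2 fold change was 1.93 (SE 0.67, limma adjusted p = 0.0186). This call was lost without WT replicate 4 with 6 h of IL-4 (adjusted p = 0.0523 in limma), without WT replicate 4 in all groups (0.072) and in the Tukey-adjusted analysis of variance (0.377). It was kept with same-numbered samples taken as a block (limma adjusted p = 8.73e-11), although replicate numbers were not tied to animals. At 24 h the IL-4 samples stood at 392, 421 and 407 FPKM, and the controls at 23.5, 25.3, 31.2 and 62.5 FPKM. That is an 11.4-fold ratio of means and a log2 fold change of 3.59 (SE 0.72, limma adjusted p = 6.77e-05). Atp6v0d2 became the most abundant of the 6 called genes after Cd9 and ranked 115 among all loci. The d1 subunit, which is used in most tissues in place of d2, was at 131 ± 11.3 FPKM with 24 h of IL-4 and 106 ± 14.3 in controls (log2 fold change 0.30, SE 0.14, limma adjusted p = 0.072). On the FPKM scale, which is per length, the mean of d2 was below that of d1 in controls (35.6 ± 18.2 FPKM) and above it after IL-4 (407 ± 14.6).

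The remaining markers of the resorbing cell diverged. Ctsk (chr3:95499286-95509362, plus strand), the main collagen-degrading protease of osteoclasts, was at 14.5, 25.2 and 31.0 FPKM with 24 h of IL-4 and at 5.38, 3.84, 8.49 and 12.0 FPKM in controls. The groups did not overlap, and Ctsk was called with a log2 fold change of 1.58 (SE 0.59, limma adjusted p = 0.0218). The call rested on few samples, since it was lost in limma without WT replicate 3 or replicate 4 with 24 h of IL-4 (adjusted p = 0.063 and 0.0906) and without replicate 2 of its controls (0.0705). It was also lost without WT replicate 4 in all groups (0.0941) and in the Tukey-adjusted analysis of variance (0.505). It was kept with same-numbered samples taken as a block (1.54, limma adjusted p = 3.02e-06). At 3 h Ctsk had pointed the other way, with 2.72 to 3.98 FPKM under IL-4 and 4.14 to 6.31 in controls (log2 fold change -0.49, limma adjusted p = 0.578). Acp5 (chr9:22126727-22135746, minus strand), the enzyme behind the TRAP stain, was not called. Its 24 h values of 6.77, 9.12 and 8.27 FPKM overlapped the controls at 6.99, 2.80, 4.49 and 3.61 FPKM, with a log2 fold change of 0.77 (SE 0.37, limma adjusted p = 0.0705). Control replicate 1 was the high value, and without it the change was 0.97 (adjusted p = 0.0335 in limma). With only the samples compared in the fit Acp5 also passed (limma adjusted p = 0.0163). A noncoding gene on the opposite strand, 6530413G14Rik, spans the whole Acp5 locus, and the library kit is not stated to keep strand. The transcripts of the 2 genes share 4.64% of the 50-base stretches of Acp5, and reads there cannot be told apart.

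Of the 2 tetraspanins, Cd9 rose and Cd81 did not pass the test. Cd9 (chr6:125460266-125494755, minus strand) was at 868, 947 and 924 FPKM with 24 h of IL-4 and at 274, 300, 351 and 386 FPKM in controls. The 2.79-fold ratio of means gave a log2 fold change of 1.49 (SE 0.43, limma adjusted p = 0.0036), which was lost in the Tukey-adjusted analysis of variance (adjusted p = 0.131). The call was kept with same-numbered samples taken as a block (limma adjusted p = 5.76e-14). At 6 h the IL-4 samples, from 418 to 516 FPKM, were above the controls, from 276 to 356, as were those of 23.8% of all loci, but the change of 0.50 did not pass the test (SE 0.40, limma adjusted p = 0.333). It passed with only the samples compared in the fit (limma adjusted p = 0.00332). Cd81 (chr7:143052750-143067930, plus strand), a close relative of Cd9, was at 154, 131 and 131 FPKM with 24 h of IL-4 and at 175, 148, 186 and 193 FPKM in controls. These groups overlapped, with a difference of -0.34 (SE 0.19, limma adjusted p = 0.127). Its mean was lower with IL-4 at all 4 times, by 0.25 to 0.34 log2 units, and none of these passed the test. With only the samples compared in the fit, Cd81 passed at 3 and 24 h (limma adjusted p = 0.023 and 0.0227). Cd9 is overlapped on the opposite strand by Gm28809 over 3316 bases and by Gm26728 over 332, and Cd81 by R74862 over 937. Of the 50-base stretches of the Cd9 transcripts, 14.4% also occur in transcripts of other genes, against 0.87% for Cd81, so part of the Cd9 signal could have been assigned elsewhere.

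**Figure D2:**
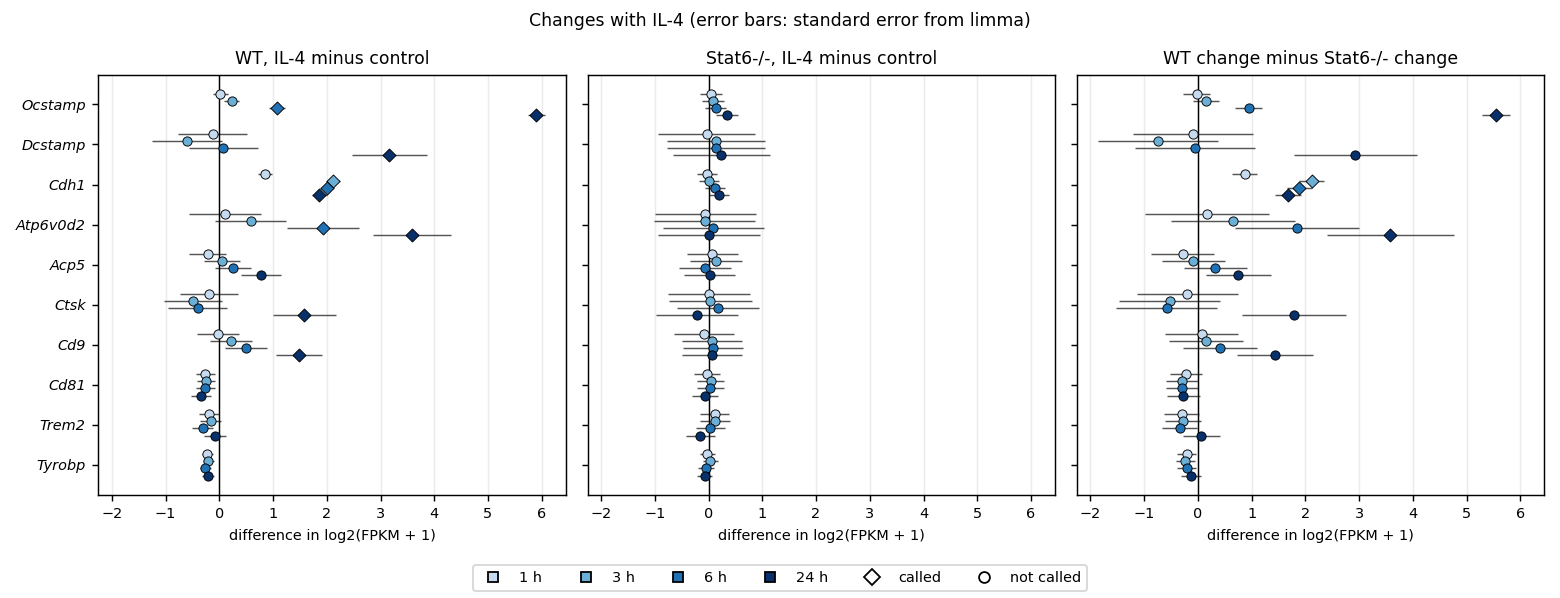
Difference in log2(FPKM + 1) between IL-4 and control for each gene in WT (left) and Stat6-/- (middle) BMDMs, and the difference between these (right), with 1 point per time and the limma standard error as bars. Diamonds mark called changes, which reach 5.90 for Ocstamp in WT, while every Stat6-/- change lies within 0.35 of 0.

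The TREM2 and DAP12 receptor pair was abundant, and neither gene was called. Trem2 (chr17:48346401-48352276, plus strand) was at 796, 754 and 737 FPKM with 24 h of IL-4 and at 857, 773, 798 and 811 FPKM in controls. The groups overlapped, and the difference was -0.09 (SE 0.21, limma adjusted p = 0.746). Tyrobp (chr7:30413788-30417579, plus strand) was at 2044, 2152 and 2142 FPKM in the same IL-4 samples and between 2088 and 2618 in controls, so that these groups overlapped too, with a difference of -0.21 (SE 0.11, limma adjusted p = 0.11). At 6 h Tyrobp was lower with IL-4 by 0.26 log2 units, which passed the test (SE 0.10, limma adjusted p = 0.0363) without reaching the fold for a call. That result was lost in 10 alternative analyses, among them quantile normalization (-0.12, adjusted p = 0.302 in limma), and at 6 h 41.2% of all loci passed.

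Time in culture without IL-4 was compared next. None of the 10 was called between the 0 and 24 h controls in WT (1.13% of loci called) or in Stat6-/- BMDMs (0.161%). In WT controls Atp6v0d2 went from 8.05, 11.6, 12.6 and 17.5 FPKM at 0 h to 23.5, 25.3, 31.2 and 62.5 FPKM at 24 h. The difference was 1.38 (SE 0.67, limma adjusted p = 0.15). The same comparison for Dcstamp gave 2.36 to 5.43 FPKM at 0 h and 5.75 to 14.8 at 24 h, a difference of 1.11 (SE 0.64, limma adjusted p = 0.238). Both passed when only the samples compared entered the fit (limma adjusted p = 0.013 and 0.0199).

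In Stat6-/- BMDMs none of the 10 genes was called or passed the test at any time of IL-4. This was also true of all 11146 loci (0% called at each time in limma, with 51, 131, 88 and 37 loci at an unadjusted p under 0.05 at 1, 3, 6 and 24 h). At 24 h Ocstamp was at 0.904 and 0.186 FPKM with IL-4 and at 0.331 and 0.0477 in controls, so that both replicates were higher than the control of the same number, and the difference was 0.35 on the log2 scale (SE 0.20, limma adjusted p = 1). Dcstamp was at 27.7 and 2.74 FPKM with IL-4 and at 26.6 and 1.79 in controls (difference 0.24, SE 0.91, limma adjusted p = 1). Atp6v0d2 was at 114 and 9.91 FPKM with IL-4 and at 120 and 9.25 in controls (difference 0.01, SE 0.94, limma adjusted p = 1). For Dcstamp and Atp6v0d2 the 2 replicates differed far more than control and IL-4 did, with mean gaps of 2.41 and 2.47 log2 units, while for Ocstamp the gap was 0.34. Cdh1 stayed at or below 0.506 FPKM in all 18 Stat6-/- samples. That highest value was replicate 2 with 24 h of IL-4, the group in which the epithelial markers also had their highest sum, 0.969 FPKM, and whether these are linked was not tested.

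The difference between the responses of the genotypes was tested directly. At 24 h it was called for 3 of the 10 genes (6.85% of loci called), Ocstamp (5.55 log2 units, SE 0.26, limma adjusted p = 1.45e-19), Atp6v0d2 (3.58, SE 1.19, limma adjusted p = 0.0217) and Cdh1 (1.67, SE 0.24, limma adjusted p = 1.1e-06). Here too, Ocstamp and Cdh1 had entered the test only through WT samples with IL-4. For Dcstamp, Ctsk and Cd9 the difference was 2.93 (SE 1.14), 1.80 (SE 0.97) and 1.43 (SE 0.71), and the limma adjusted p was 0.0534, 0.168 and 0.13. With a replicate block these 3 differences were 2.85 (SE 0.29), 1.76 (SE 0.42) and 1.39 (SE 0.18), with limma adjusted p = 9.60e-10, 0.000915 and 6.26e-08. The block takes same-numbered samples as belonging together, and replicate numbers were not tied to animals. At 3 and 6 h the difference between genotypes was called for 1 gene each, Cdh1, at 2.12 and 1.89 log2 units (limma adjusted p = 4.11e-09 and 4.82e-08), against 3.48% and 4.41% of loci. Cdh1 at 1 h (0.87, limma adjusted p = 0.0215, 1.25% of loci called) and Ocstamp at 6 h (0.94, limma adjusted p = 0.00579) passed below the fold for a call. The former was lost without any of 3 single Stat6-/- samples at 1 h (adjusted p = 0.0538 to 0.156 in limma), and the latter without Stat6-/- replicate 2 with 6 h of IL-4 (0.0817) or replicate 1 of its control (0.0607). With either Stat6-/- replicate left out of all 9 groups, an analysis chosen after the data had been seen, the difference at 24 h was 2.74 without replicate 1 and 3.11 without replicate 2 for Dcstamp, 1.75 and 1.84 for Ctsk, and 1.33 and 1.53 for Cd9. Each Stat6-/- group then held 1 sample and the spread came from WT alone, so these are given as values with no test. The Atp6v0d2 difference was 3.49 with the replicate block (SE 0.34, limma adjusted p = 2.6e-10). However, this difference did not pass when only the samples compared were fitted (adjusted p = 0.127 in limma). It was also lost in limma without Stat6-/- replicate 2 with 24 h of IL-4 (1.89, adjusted p = 0.354) and without replicate 1 of its control (1.80, adjusted p = 0.383). The 24 h Stat6-/- groups then held unlike replicates, with a mean gap of 2.47 log2 units between replicates 1 and 2.

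**Figure D3:**
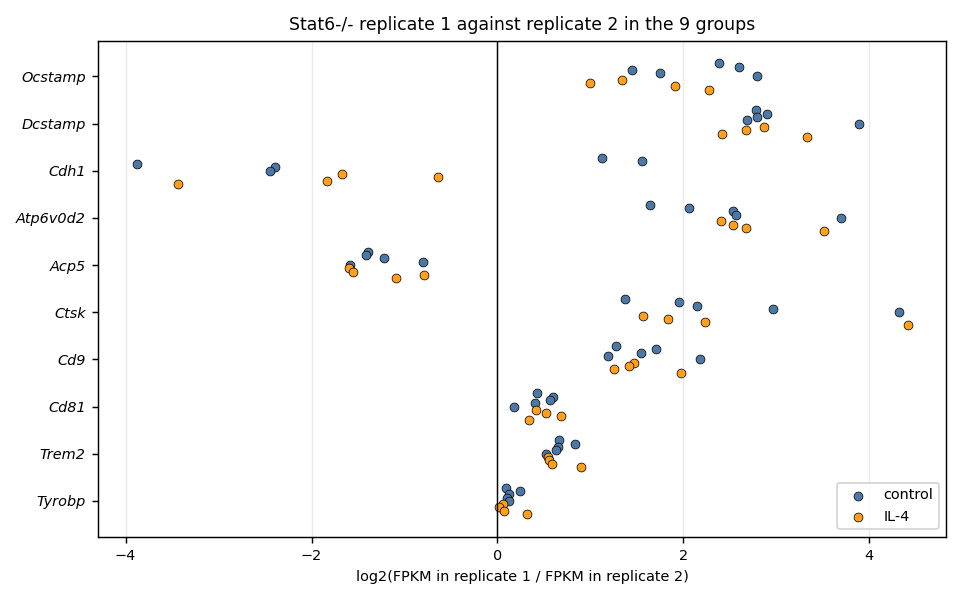
Log2 ratio of FPKM in Stat6-/- replicate 1 to replicate 2 for each gene, with 1 point for each of the 9 groups of controls and IL-4 samples. Dcstamp, Atp6v0d2, Ctsk, Cd9, Ocstamp, Cd81, Trem2 and Tyrobp are higher in replicate 1 in 9 of 9 groups, and Tyrobp lies near 0. Acp5 is lower in 9 of 9. Among all tested loci, 34.2% keep the same direction in 9 of 9 groups.

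Levels of the genes that IL-4 raised in WT differed between the Stat6-/- replicates, and the ranges over the 9 groups of each replicate are given here. The share of all loci with separate ranges was not counted. The 9 samples of a replicate may share an animal, since replicate numbers were not tied to animals. Ocstamp, at 0.278 to 0.904 FPKM in replicate 1 and 0.0468 to 0.186 in replicate 2, had a median ratio of 3.75, and Cdh1 was higher in replicate 2 in 7 of 9 groups, both at levels under 1 FPKM. Dcstamp ran from 10.1 to 27.7 FPKM in the 9 groups of replicate 1 and from 1.47 to 2.74 in those of replicate 2, with a median ratio of 6.93. For Atp6v0d2 the ranges were 22.2 to 120 and 6.06 to 9.91 FPKM (median ratio 5.81), for Ctsk 5.76 to 19.8 and 0.768 to 2.23 (4.42), and for Cd9 311 to 453 and 100.1 to 142 (2.76). The ranges of Cdh1 overlapped, at 0.0128 to 0.172 FPKM in replicate 1 and 0.0372 to 0.506 in replicate 2. Acp5 ran opposite to Dcstamp, Atp6v0d2, Ctsk and Cd9, with 3.47 to 4.65 FPKM in replicate 1 and 7.20 to 12.8 in replicate 2. Trem2 was 1.54-fold and Cd81 1.34-fold higher in replicate 1 (medians), and Tyrobp 1.07-fold. Among all tested loci, 4.11% had a mean gap between the replicates of at least 1 log2 unit, as did Dcstamp, Atp6v0d2, Ctsk, Cd9 and Acp5.

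The summed granulocyte and progenitor markers were 646 to 1088 FPKM in replicate 1 and 597 to 790 in replicate 2, and the macrophage markers 3418 to 3772 and 3621 to 4469. Fcgr1, an activating receptor on the macrophage list, had a median of 103 FPKM in replicate 1 and 476 in replicate 2, and Itgam 252 and 383. The other macrophage markers had higher medians in replicate 1. These were 1016 and 712 FPKM for Csf1r, 1012 and 838 for Adgre1, 1246 and 1219 for Cd68, and 24.7 and 18.2 for Mertk. The dendritic cell marker Ccr7 had medians of 0.946 and 3.95 FPKM. Of the other dendritic cell markers, Xcr1 and Zbtb46 had higher medians in replicate 2, and Cd209a, Flt3 and Siglech in replicate 1. The part of these differences in the gap was not tested. A gap of the same kind, though smaller, was seen in WT, where replicate 4 was highest in 8 of 9 groups for both Dcstamp and Atp6v0d2. The SD within groups on the log2(FPKM + 1) scale was 0.40 for Dcstamp in WT and 1.73 in Stat6-/-, and 0.14 and 1.12 for Cd9.

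Between genotypes, averaged over the 5 control groups, none of the 10 genes was called (0.287% of loci called). Cd9 was lower in Stat6-/- by 0.61 log2 units (SE 0.22, limma adjusted p = 0.0387) and Cd81 by 0.31 (SE 0.09, limma adjusted p = 0.0144), and 21.4% of loci passed this test. Without Stat6-/- replicate 2, which leaves 1 sample per Stat6-/- group and so no test of its own, the differences were 0.17 for Cd9 and -0.10 for Cd81. Leaving out single replicate 2 controls also lost Cd9 (limma adjusted p = 0.14 to 0.194, each of 5 samples) and Cd81 (0.055 to 0.0705, 4 of 5 samples). Cd9 in replicate 1, at a median of 364 FPKM, lay within the range of the 20 WT controls, 274 to 386, in 6 of its 9 groups and above it in 3, while replicate 2, at a median of 131, lay below all of them. Without replicate 1 the differences of Dcstamp, Atp6v0d2 and Ctsk were -1.02, -1.08 and -1.43, and without replicate 2 they were 1.43, 1.28 and 0.49. The genotypes also differed in marker content. Granulocyte and progenitor markers summed to 226 to 631 FPKM over all WT samples and 597 to 1088 over all Stat6-/- samples. Their part in the differences between genotypes was not tested.

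The wider pathways were read from lists of related genes. Over all loci, 22% passed higher and 19.2% lower at 6 h, and 23.4% and 31.6% at 24 h. The shares called were 3.18% higher and 2.36% lower at 6 h, and 3.91% and 4.58% at 24 h. Of 20 tested surface molecules tied to fusion, 5 were called higher and 1 lower in WT at 24 h, and the list median was 0.29. The largest changes were at 6 h, for Itgb3, the beta3 integrin of osteoclasts (1.63 ± 0.417 to 16.1 ± 1.52 FPKM, SD, n = 4, log2 fold change 2.71, limma adjusted p = 4.85e-13), the mannose receptor Mrc1 (109 ± 15.6 to 671 ± 11.5, 2.62, limma adjusted p = 3.15e-11) and Clec7a, which encodes dectin-1 (62.8 ± 7.81 to 351 ± 23.7, 2.47, limma adjusted p = 1.12e-11). The responses of these 3 genes also differed between genotypes, by 2.60, 2.31 and 2.37 log2 units (limma adjusted p = 2.18e-06, 0.000115 and 1.7e-05). The DC-STAMP relative Dcst1 was at most at 0.0514 FPKM, and Trem1, the inflammatory counterpart of Trem2, at most at 0.433.

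Among 26 tested genes of resorption and the V-ATPase, 13 passed higher and 2 lower at 24 h, with 3 called higher and 1 lower and a list median of 0.32. Atp6v0a1, a membrane subunit of the same pump as Atp6v0d2, went from 84.7 ± 13.6 to 370 ± 10.1 FPKM (2.13, limma adjusted p = 3.19e-13). Car2, the carbonic anhydrase that feeds protons to it, went from 0.0874 ± 0.0695 to 4.82 ± 2.08 (2.36, limma adjusted p = 1.51e-19). The membrane metalloproteinase Mmp14 fell from 10.6 ± 4.32 to 1.99 ± 0.697 (-1.90, limma adjusted p = 8.52e-05). In these 3 comparisons n was 4 for controls and 3 for IL-4.

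Of 14 other tetraspanins, 2 were called higher and 2 lower at 24 h (list median -0.09), against 3.91% and 4.58% of all loci. Tspan5 rose from 4.58 ± 0.966 to 20.1 ± 0.724 FPKM (1.93, limma adjusted p = 2.58e-09), whereas Tspan13 fell from 11.2 ± 2.93 to 2.14 ± 0.0925 (-1.93, limma adjusted p = 1.16e-09) and Cd82 from 51.5 ± 5.74 to 15.1 ± 0.898 (-1.70, limma adjusted p = 1.73e-08). None of the 6 catenins and EWI partners that bind cadherins or CD9 and CD81 was called at any time, when 1.49% to 8.5% of all loci were.

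Of 13 genes of the TREM family and ITAM signalling, 6 passed lower and 0 higher at 24 h (list median -0.28), where 31.6% and 23.4% of all loci did, and the kinase Lyn was the 1 gene called, at 6 h (78.8 ± 8.15 to 37.4 ± 1.67 FPKM, -1.05, limma adjusted p = 4.59e-05). Of 15 osteoclast transcription factors, 3 passed higher and 7 lower at 24 h. Fos, which is essential for osteoclasts, fell at 3 h from 113 ± 11.1 to 21.1 ± 3.00 FPKM (-2.37, limma adjusted p = 1.14e-14), while its relative Fosl2 rose at 1 h from 3.53 ± 0.381 to 20.7 ± 3.64 (2.25, limma adjusted p = 5.42e-11). Relb fell at 24 h from 24.8 ± 2.98 to 7.90 ± 0.511 (-1.53, limma adjusted p = 1.49e-10). Nfatc1, the master factor of osteoclasts, lay between 11.1 and 23.8 FPKM in all 53 samples.

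**Figure D4:**
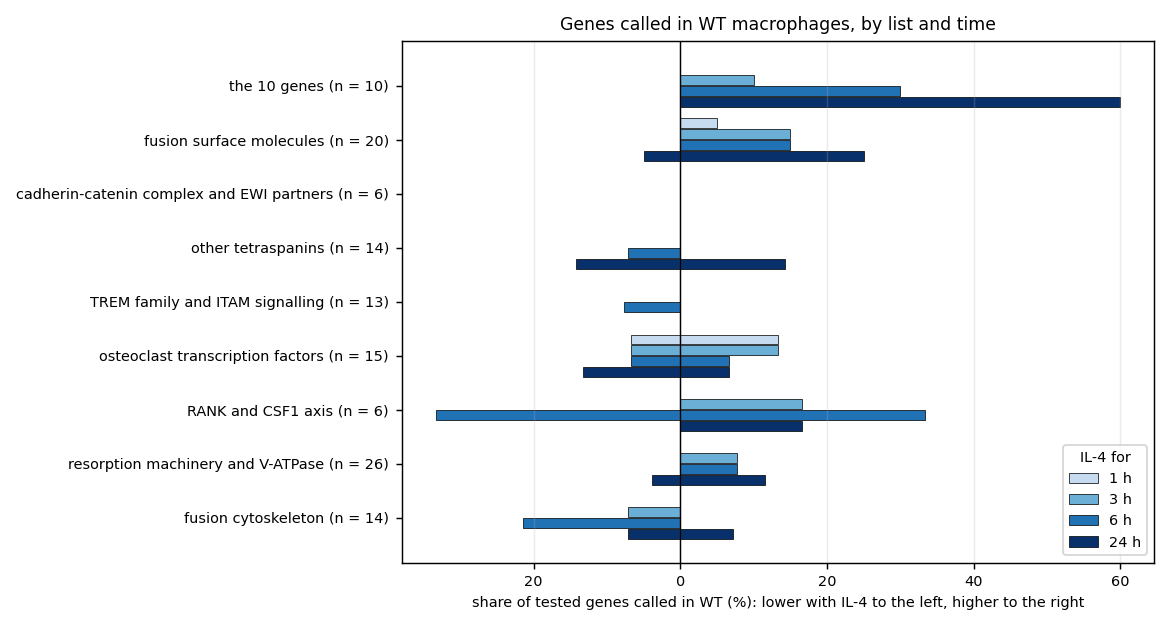
Share of tested genes called in WT (%) for the 10 genes and 8 related lists, with bars to the right for higher and to the left for lower with IL-4, shaded by time. The 10 genes reach 60% at 24 h with no bar to the left, and the other lists hold calls in both directions, in 1 direction or none.

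Of the 6 tested genes of the RANK and CSF1 axis, 2 were called higher and 2 lower at 6 h, against 3.18% and 2.36% of all loci. Ccl2, a chemokine known to promote fusion, was at 48.7 ± 17.1 FPKM with 24 h of IL-4 and 3.10 ± 1.07 in controls (3.58, limma adjusted p = 0.00654), but its response did not differ between genotypes by the test (2.88, SE 1.83, limma adjusted p = 0.251). Its receptor Ccr2 fell at 6 h (62.6 ± 21.1 to 18.5 ± 7.50 FPKM, -1.73, limma adjusted p = 0.00905), and Csf1 rose (0.641 ± 0.0138 to 2.56 ± 0.292, 1.11, limma adjusted p = 1.34e-07). Tnfrsf11a, which encodes the RANKL receptor RANK, was the other gene called lower at 6 h. Its log2 fold change was -1.06 at 6 h and -0.33 at 24 h. Of 14 genes of the fusion cytoskeleton, 9 passed lower and 0 higher at 6 h, with 3 called lower. The podosome scaffold Sh3pxd2a fell by 1.51 log2 units at 24 h (3.83 ± 0.422 to 0.689 ± 0.0771 FPKM, limma adjusted p = 1.64e-10) and Myo10 by 1.32 at 6 h (7.47 ± 0.584 to 2.39 ± 0.175, limma adjusted p = 0.00013). Vinculin (Vcl) rose at 24 h from 4.79 ± 0.774 to 13.3 ± 1.41 (1.31, limma adjusted p = 5.85e-09).

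A list of 6 osteoclast markers, all listed in the tables, summed to 32.2 to 43.3 FPKM with 24 h of IL-4 in WT and to 21.4 to 22.6 in controls. On this list Itgb3, Car2 and Mmp9 had log2 fold changes of 2.12, 2.36 and 0.54 at 24 h, and Nfatc1 one of -0.56. Calcr, the calcitonin receptor, was at most at 0.00869 FPKM and at 0 in 46 of 53 samples, and Oscar was at most at 0.0690. The granulocyte and progenitor markers summed to 226 to 328 FPKM with 24 h of IL-4 and 454 to 631 in controls, and their part in the changes above was not tested.

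The genes most like each called gene over the 18 group means of log2(FPKM + 1) differed from gene to gene, as a description in which the groups share cultures and controls. Ocstamp was closest to Wwc1, Hr and Map2 (Pearson r = 0.995, 0.995 and 0.993), and Dcstamp to Tacc2, Mmp19 and Lat (0.981, 0.978 and 0.976). The Ocstamp group mean was 68.8 FPKM in WT with 24 h of IL-4 and at most 1.38 in other groups. Its r therefore rests mainly on that 1 group. Cdh1 was closest to Slc7a2, Tmem26 and Socs2 (0.992, 0.986 and 0.984), and Atp6v0d2 to Arih1, Gpc1 and Rras2 (0.987, 0.983 and 0.978). For Ctsk these were Atp6v1c1, Stac2 and Acot7 (0.971, 0.971 and 0.965), the first of them a further V-ATPase subunit, and for Cd9 they were Lgals3, Anxa4 and Tmem158 (0.977, 0.974 and 0.966). Within the 10 genes, Ocstamp, Dcstamp and Atp6v0d2 were the most alike (0.877 to 0.916), and the lowest value between called genes was that of Cdh1 with Dcstamp (0.262).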

How the data were processed

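Polyadenylated RNA of 53 BMDM samples was sequenced, and the authors deposited 1 table of FPKM per sample. The submitters' processing notes name TopHat2 2.0.7, Cufflinks 2.0.2 and mm10. FPKM carry no counts, so absolute depth is unknown, and relative depth was read from the steps between low values. No column of the tables was without a sample.

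The 10 genes, the related lists and the marker lists were chosen with earlier results of these data known. log2(FPKM + 1) was fitted with limma 3.58.1 (R 4.3.3) over all 53 samples with 1 mean per group, 35 residual degrees of freedom, and loci at 1 FPKM or more in at least 1 sample. P-values were two-sided and adjusted by Benjamini-Hochberg over 11146 loci. Fold changes on this scale understate those of low genes. The fit was tested on simulated data. WT samples within a group came from separate animals by the study's methods, and the fit took samples of different groups as separate too. For Stat6-/- samples, separate animals were not given in the sources used here. P-values then measure the spread between samples only, which may be technical. Genes named beside the 10 were Stat6, paralogs, up to 3 genes per list with the largest called change at any time in WT, and the 3 genes most correlated with each called gene. Marker genes, overlapping genes and Tnfrsf11a were named after their values were seen.

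Alternatives were a pseudocount of 0.1, no or a stricter filter, quantile and upper-quartile scaling, only the samples compared, a replicate block, analysis of variance with Tukey adjustment over 16 groups, Spearman correlation, and each library left out in turn. Leaving out WT replicate 4 or either Stat6-/- replicate from all groups was added after seeing the data. Gene loci are those of the deposited tables, gene types and overlaps came from GENCODE gene models on mm10, and promoters from RefSeq (GRCm38.p6). Python 3.11.15 with numpy 2.4.6 and pandas 2.3.3 was used.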

Additional observations from a re-analysis of the deposited data

Results flagged for a closer look

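Dixon's test marked 7 of 80 groups of 4 WT samples, where 4 would be expected by chance. Replicate 4 was high for Dcstamp with the 3 h control (6.03 FPKM, others 2.99 to 3.38) and with 6 h of IL-4 (7.24, others 3.86 to 4.33). It was also high for Atp6v0d2 with 1 h of IL-4 (22.8 FPKM, others 11.1 to 12.2) and 6 h of IL-4 (86.4, others 53.8 to 55.0). Replicate 1 of the 6 h control was low for Cd81 (123 FPKM, others 170 to 176) and Tyrobp (1780, others 2401 to 2476), and replicate 2 at 0 h was low for Cdh1 (0.0215, others 0.0468 to 0.0514).

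The WT response to IL-4 differed from the Stat6-/- response in 7 of 40 tests of the difference. These were Cdh1 at 1, 3, 6 and 24 h (0.87, 2.12, 1.89 and 1.67 log2 units), Ocstamp at 6 and 24 h (0.94 and 5.55) and Atp6v0d2 at 24 h (3.58).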

How the results depend on the processing

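Depth is unknown, and values under 1 FPKM are compressed by the pseudocount. Errors are wide with 2 samples per Stat6-/- group and the gaps between them. With a pseudocount of 0.1, the number of the 10 genes called was 1 at 1 h (0 as reported) and 2 at 3 h (1) in WT, and 1 at 1 h (0) and 2 at 6 h (1) for the difference between genotypes. A mean of at least 1 FPKM removed Cdh1 and left 0 in WT at 3 h, 0 for the step from 1 to 3 h and 0 for the difference between genotypes at 3 and at 6 h (1 each as reported). Fitting only the samples compared gave 2 between the WT controls at 24 and 0 h (0), 1 for the step from 3 to 6 h (0) and 4 for that from 6 to 24 h (2). Without WT replicate 4 the last was 1. Without Stat6-/- replicate 1 or 2 the counts were 4 and 2 between control genotypes (0), 6 and 6 for the difference at 24 h (3), and 3 and 2 at 6 h (1). These fits hold 1 sample per Stat6-/- group, assumed to vary like WT, and say nothing about spread in the knockout. Without replicate 2 it was 2 between the Stat6-/- controls at 24 and 0 h (0). Between control genotypes the direction depended on the replicate kept, with -1.08 and 1.28 for Atp6v0d2, -1.02 and 1.43 for Dcstamp, -1.43 and 0.49 for Ctsk and -1.40 and 0.17 for Cd9 without replicate 1 and without replicate 2. The causes were not tested. With single libraries left out, the counts ranged from 1 to 3 in WT at 6 h, 5 to 6 in WT at 24 h, 2 to 3 for the step from 6 to 24 h, and 2 to 6 at 24 h and 1 to 2 at 6 h for the difference between genotypes.

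Replicate numbers were not tied to animals. Deviations of same-numbered WT samples correlated at 0.027 to 0.561 (mean 0.274) and those of Stat6-/- at 0.791 to 0.9. Differently numbered WT samples correlated at -0.563 to 0.283 (mean -0.091). With 2 samples per Stat6-/- group, the values for different numbers are the same with the sign reversed. Same-numbered samples were thus more alike, and the fit without a block leaves this in the error. With a replicate block the counts were 6 at 24 h and 2 at 6 h for the difference between genotypes, 4 for the step from 6 to 24 h, 1 for that from 3 to 6 h, 2 between WT controls and 1 between Stat6-/- controls. The block added the 24 h differences of Dcstamp (2.85, limma adjusted p = 9.60e-10), Ctsk (1.76, 0.000915) and Cd9 (1.39, 6.26e-08). In WT, Acp5 at 24 h (0.91, 2.16e-07), Dcstamp at 3 h (-0.60, 0.00314), Cd9 at 6 h (0.50, 5.28e-05) and Cd81 at 3, 6 and 24 h (0.0461, 0.0312 and 0.00173) passed with it. Over all loci, a pseudocount of 0.1 called 931 in WT at 6 h (617) and 1522 at 24 h (947), 1198 for the difference at 24 h (763), 130 between control genotypes (32), 260 between WT controls (126), 278 for the step from 1 to 3 h (180) and 86 from 3 to 6 h (50). Only the samples compared gave 215 and 0 between WT and Stat6-/- controls of 24 and 0 h (126 and 18), and the block 215 and 140. Without Stat6-/- replicate 1 or 2, 244 and 81 were called between control genotypes, and 262 and 142 between the Stat6-/- controls. Without WT replicate 4, 81 were called between WT controls. Single libraries moved the difference at 24 h to 464 to 1355, the Stat6-/- controls to 5 to 71 and the control genotypes to 25 to 61. For IL-4 in Stat6-/-, 0 to 4 loci were called in any alternative. Spearman correlation kept Lat, Acot7 and Anxa4 among the 3 genes most like Dcstamp, Ctsk and Cd9.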
